A study of Mus musculus with 17 samples.

Results

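The 39 interferon-stimulated genes described here were chosen by name, as mouse genes known to be induced by interferon, and all 39 were found among the 31647 features of the count table. Earlier results of these data were known when they were chosen. Hearts of male C57BL/6J wild-type mice aged 8 to 11 weeks were compared 5 days after surgery. The controls were left ventricles of 8 sham-operated mice, which had the same operation with no ligation. The infarct zones came from 9 mice in which the left anterior descending artery had been tied off for good, and the dissected tissue holds many cell types. All mice were operated on under isoflurane with buprenorphine as the painkiller. The genotype given for all 17 samples is wild type.

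Interferons are secreted proteins that cells release when nucleic acids in the wrong place, from a virus or from damaged cells, are detected by sensors such as RIG-I, MDA5 or cGAS. Type I interferons bind IFNAR1 and IFNAR2, and the kinases JAK1 and TYK2 then phosphorylate transcription factors such as STAT2, which joins IRF9 and binds the interferon-stimulated response element in front of target genes. Interferon gamma acts through a receptor of its own, by way of the gamma-activated site, and turns on IRF1. Interferon-stimulated genes encode sensors, transcription factors, antiviral effectors and immunity GTPases, and in the infarcted heart they are best known from macrophages that take up DNA of dying cells.

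The response element links these genes, so a stretch around it is shown for members that rose and for members that were not called in the comparison below. The core was searched as GAAANNGAAA, and the gamma-activated site as TTCNNNGAA, on both strands of the windows from 250 bases before to 50 bases after each gene start (RefSeq, GRCm38.p6), where N is any base. Of the 39 members, 28 had a window, and 17 of these (60.7%) held the core, against 1079 of 27025 genes (3.99%). The gamma-activated site was present for 9 of the 28 members (32.1%), against 9.55% of all genes. In 5 members (Bst2, Gbp3, Irgm1, Isg15 and Oas1a) cores overlapped each other, and in 2 member windows a core overlapped a gamma-activated site. Capitals below mark the core, overlapping cores merged, and each stretch lies upstream of the start and is written 5′ to 3′ on the strand of the gene.
Isg15 (chr4:156200855-156200916, minus strand): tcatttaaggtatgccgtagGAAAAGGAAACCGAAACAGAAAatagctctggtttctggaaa
Oas1a (chr5:120907526-120907565, minus strand): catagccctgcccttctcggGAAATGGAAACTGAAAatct
Bst2 (chr8:71537567-71537622, minus strand): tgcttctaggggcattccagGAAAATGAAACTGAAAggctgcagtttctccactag
Irgm1 (chr11:48871421-48871470, minus strand): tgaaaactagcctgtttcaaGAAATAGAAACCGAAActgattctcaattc
Ifit1 (chr19:34640765-34640814, plus strand): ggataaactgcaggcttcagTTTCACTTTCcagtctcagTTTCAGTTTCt
Ifit3 (chr19:34583353-34583402, plus strand): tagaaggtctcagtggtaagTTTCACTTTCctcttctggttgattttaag
Ifit3b (chr19:34607749-34607798, plus strand): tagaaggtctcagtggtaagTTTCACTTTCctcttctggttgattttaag
Gbp2 (chr3:142620584-142620633, plus strand): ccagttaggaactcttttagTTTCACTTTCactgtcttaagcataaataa
Igtp (chr11:58199502-58199551, plus strand): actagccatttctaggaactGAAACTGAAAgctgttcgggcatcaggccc
Rsad2 (chr12:26456543-26456592, minus strand): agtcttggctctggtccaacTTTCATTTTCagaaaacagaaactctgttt
Isg15 carried 3 overlapping cores over 22 bases, and Oas1a, Bst2 and Irgm1 carried 2 over 16 bases. The printed bases of Ifit3 and Ifit3b, neighbours on chromosome 19, were the same. Gbp2, Igtp and Rsad2 held the core as well. Of the 17 members with a core 16 were tested and 12 were upregulated in the infarct zone, and of the 11 without one, all tested, 4 were, which is a count of letters in short windows and carries no test.

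The libraries were 3′ end libraries, in which each molecule is counted once near its poly(A) tail, and they held 1820809 to 4257919 counts in sham hearts and 1237675 to 4738307 in the infarct zone. Levels are given as CPM, counts per 1000000 of the library size after TMM scaling. The TMM factors were 0.616 to 0.729 in sham hearts and 1.05 to 1.53 in the infarct zone, so the choice of scaling bears on every fold change below and on the calls. Infarct zone replicate 1 stood apart, with 19.5% mitochondrial counts against 4.22 to 6.78% in the other infarct zones, and with a summed level of the 10 cardiomyocyte markers of 37521 CPM against 3363 to 8602 CPM. In sham this sum was 84166 to 108857 CPM, and all 10 markers were lower in the infarct zone.

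Together the members were more abundant in the infarct zone, and the size of the rise differed greatly among them. Their summed level was 575 to 803 CPM in sham (median 680.04) and 944 to 1533 CPM in the infarct zone (median 1109), with no overlap of the groups. Of the 38 members that passed the filter on low counts, 24 were upregulated, 1 was downregulated and 13 were not called at an adjusted p of 0.05 (edgeR quasi-likelihood F test, Benjamini-Hochberg over 12301 genes), whereas on total counts alone 37 were upregulated and none was downregulated. The background was large, since 36.3% of all genes tested were higher and 33.1% were lower. The share of members called higher was 63.2%. Among these, Mx1, Zbp1, Dhx58, Oas1a, Ifi47, Ifit3b and Ifi204 had sham means under 10 counts (1.75 to 9.88). They passed the filter through their infarct zone counts, so this share and the median below are set in part by the filter. Mx2 (4.88 counts in sham) passed in the same way and was not called. All genes tested passed the same filter. The median log2 fold change was 0.68 for the members and 0.05 for all genes tested, and on total counts alone these were 1.75 and 1.13. In 14 of the 38 members tested the rise was called and at least 1 on the log2 scale, against 19.3% of all genes tested. In 9 members the lowest infarct zone exceeded the highest sham library (23.1% of 39, against 16.6% of all genes tested). These were Zbp1, Ifi204, Oas1a, Oasl2, Eif2ak2, Mx1, Bst2, Ifitm3 and Ifi27. Without infarct zone replicate 1 and replicate 4, an alternative chosen after seeing the data, 17 members were higher, 2 were lower and the median was 0.44. In bulk tissue, fewer cells of a type and less RNA per cell cannot be told apart.

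**Figure D1:**
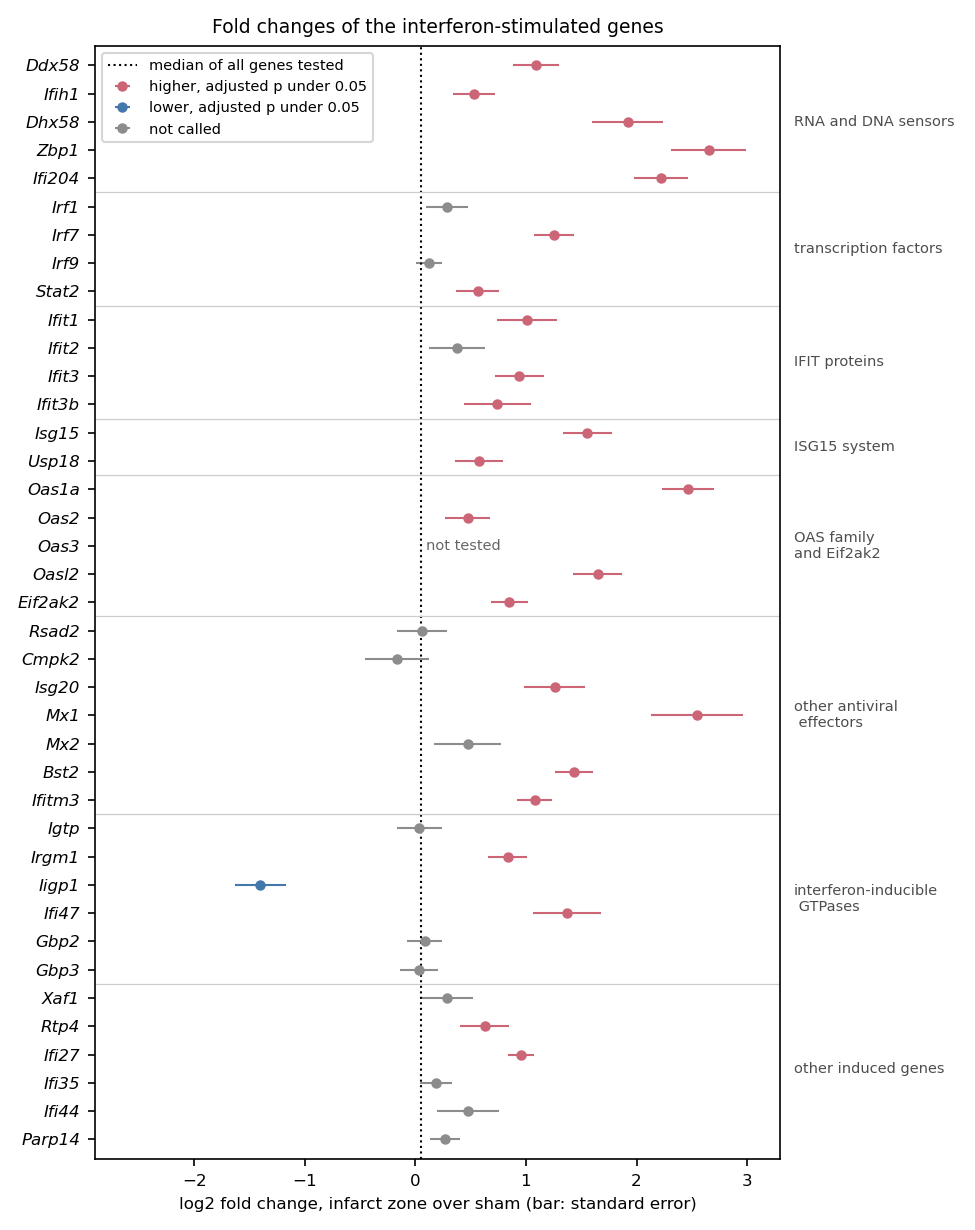
Log2 fold change of each member, infarct zone over sham, with its standard error (edgeR, 9 against 8 libraries); colour gives the call and the dotted line is the median of all genes tested, 0.05. Zbp1 (2.65), Mx1 (2.55) and Oas1a (2.47) lie farthest to the right and Iigp1 (-1.40) is the member called lower; on total counts alone the values lie about 1.08 higher and Iigp1 is not called.

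Most of the marker lists of other cell types differed between the groups, whereas the endothelial and dendritic cell sums overlapped. All 7 leukocyte markers were higher (summed level 90.02 to 131 CPM in sham hearts and 611 to 1559 CPM in the infarct zone), as were all 12 monocyte and macrophage markers (448 to 636 and 2531 to 6024 CPM). Of 7 neutrophil markers 4 were tested and all 4 were higher (4.95 to 12.2 and 15.8 to 218 CPM), with Ly6g at 0 in every sham library. Of 7 fibroblast markers 6 were higher (1269 to 2400 and 9286 to 16180 CPM). Of 8 endothelial markers none was higher and 3 were lower (482 to 931 and 374 to 604 CPM). The 12 markers of T and NK cells were too low to be tested (0.55 to 5.64 and 9.67 to 34.5 CPM), with Cd8a at 0 in sham. Their part in the levels of the interferon-stimulated genes was not tested.

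The sensors of RNA and DNA rose throughout, with 5 of 5 members upregulated. Zbp1, which binds Z-form nucleic acids and can start necroptosis, had 0 to 2.69 CPM in sham (median 2.05) and 6.12 to 15.7 CPM in the infarct zone (median 10.1). The groups did not overlap, and its log2 fold change of 2.65 ± 0.34 (± standard error, as below; adjusted p = 2.58e-07) was the largest of the members tested. Its sham level rested on 24 counts in 8 libraries. Ifi204, a DNA sensor of the IFI200 family, rose from 2.91 to 8.72 CPM (median 5.45) to 14.6 to 40.6 CPM (median 24.04), again with no overlap and by 2.22 ± 0.24 (adjusted p = 2.78e-08). Its last bases match the neighbouring Gm18445 over 172 bases at 95.3% identity, so reads of these loci may be shared. Dhx58, which encodes the RIG-I-like receptor LGP2, had 0.542 to 4.71 CPM in sham (median 2.55) and 3.37 to 15.9 CPM in the infarct zone (median 10.7). All infarct zones but 1 lay above the highest sham library, and the change was 1.92 ± 0.32 (adjusted p = 1.32e-05). Ddx58 (RIG-I) ran from 3.87 to 16.8 CPM in sham hearts and from 13.97 to 30.2 CPM in the infarct zone, with 8 of 9 infarct zones above all sham libraries and a change of 1.09 ± 0.21 (adjusted p = 7.42e-05). Ifih1 (MDA5) changed least in this group. Its infarct zones (11.2 to 19.8 CPM) overlapped the sham range (3.64 to 15.2 CPM) in 4 libraries, and its change of 0.53 ± 0.19 (adjusted p = 0.0161) was no longer called after thinning to equal total counts (adjusted p = 0.05004) or without infarct zone replicates 1 and 4 (0.0556).

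Of the 4 transcription factors, Irf7 and Stat2 were upregulated and Irf1 and Irf9 were not called. Irf7, the factor that amplifies the type I response, had 12.7 to 26.7 CPM in sham (median 20.3) and 25.9 to 79.6 CPM in the infarct zone (median 43.5). Infarct zone replicate 6 alone fell within the sham range, and the change was 1.25 ± 0.18 (adjusted p = 2.06e-06). Stat2 had 5.52 to 20.004 CPM in sham hearts and 15.8 to 32.2 CPM in the infarct zone, with 6 of 9 infarct zones above sham and a change of 0.56 ± 0.19 (adjusted p = 0.0123), which was lost without infarct zone replicates 1 and 4 (adjusted p = 0.0559). Irf9, the DNA-binding partner of STAT2, had medians of 30.8 and 31.4 CPM and a log2 difference of 0.13 ± 0.12 (adjusted p = 0.342). Its exons overlap those of Rnf31 on the same strand. Irf1, which is induced most by interferon gamma, had medians of 19.1 CPM in sham hearts and 22.3 CPM in the infarct zone, and the ranges overlapped in 8 of 9 infarct zones (0.29 ± 0.19, adjusted p = 0.194).

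The IFIT proteins bind viral RNA that lacks a host cap, and their genes stand in a row on chromosome 19 (Ifit2 at chr19:34550694-34576419, Ifit3 at chr19:34583531-34588731, Ifit3b at chr19:34607970-34613401 and Ifit1 at chr19:34640871-34650009, all on the plus strand of GRCm38). Ifit1, Ifit3 and Ifit3b were upregulated and Ifit2 was not called. Ifit1 had 9.90 to 19.6 CPM in sham (median 12.9) and 11.2 to 49.96 CPM in the infarct zone (median 22.04). Infarct zone replicates 4 and 7 were the highest, at 49.8 and 49.96 CPM, and 4 of 9 infarct zones lay within the sham range. The change was 1.01 ± 0.27 (adjusted p = 0.00212). Ifit3 rose by 0.94 ± 0.22 (adjusted p = 0.000646), from 9.35 to 19.5 CPM in sham to 11.8 to 38.8 CPM in the infarct zone. Ifit3b had few counts in sham (53 in all), and its change of 0.74 ± 0.30 (adjusted p = 0.0343) was lost on leaving out any 1 of 4 libraries, namely sham replicate 1, 4 or 6 or infarct zone replicate 6, with adjusted p of 0.0527 to 0.0791. Ifit2 had medians of 6.09 and 9.33 CPM and a difference of 0.38 ± 0.25 (adjusted p = 0.191).

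Isg15, a ubiquitin-like protein that is joined to other proteins, and Usp18, the protease that takes it off again and also dampens receptor signalling, were both upregulated. Isg15 (chr4:156199424-156200818, minus strand), shown above with 3 overlapping cores, had 8.77 to 18.2 CPM in sham (median 13.9) and 17.6 to 54.2 CPM in the infarct zone (median 43.6). Infarct zone replicate 1, at 17.6 CPM, was the one infarct zone within the sham range, and the change was 1.56 ± 0.22 (adjusted p = 1.55e-06). Usp18 had 5.34 to 14.1 CPM in sham hearts and 7.44 to 19.2 CPM in the infarct zone, with 5 of 9 infarct zones inside the sham range. Its change of 0.58 ± 0.22 (adjusted p = 0.0215) was lost without sham replicate 7 (adjusted p = 0.0625) and without infarct zone replicates 1 and 4 (0.115).

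**Figure D2:**
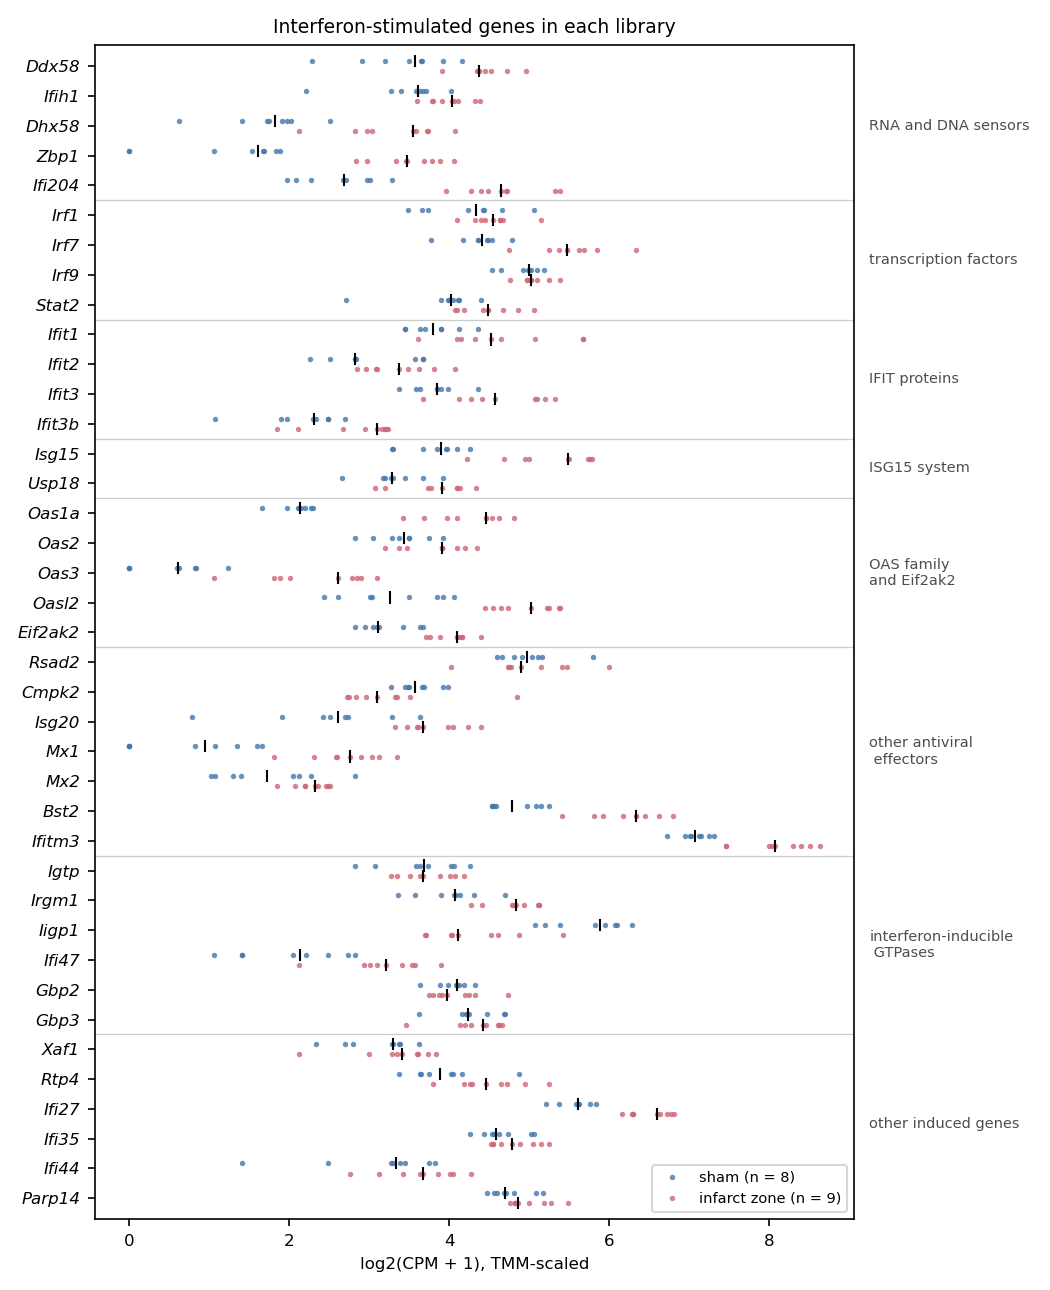
Level of each member in every library as log2(CPM + 1) after TMM scaling; blue points are the 8 sham and red points the 9 infarct zone libraries, and black marks are group medians. Sham and infarct zone points are apart for Ifi204, Oas1a, Bst2 and Ifi27, overlap almost wholly for Igtp, Gbp3 and Irf9, and are shifted to the left in the infarct zone for Iigp1.

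The OAS proteins make 2′-5′ oligoadenylate on double-stranded RNA, which activates RNase L, and Eif2ak2 encodes PKR, the kinase that stops translation on the same trigger. All 4 of these genes that passed the filter on low counts were upregulated. Oas1a had 2.17 to 3.92 CPM in sham (median 3.40) and 9.69 to 27.1 CPM in the infarct zone (median 20.9). The groups were far apart, and the change was 2.47 ± 0.24 (adjusted p = 3.5e-09). The last 500 bases of Oas1a and Oas1g match at 98.0% identity, so the split of reads between them is uncertain. Oas1g itself, which is no member, rose by 2.31 ± 0.24 (adjusted p = 8.97e-09). Oasl2 had 4.40 to 15.6 CPM in sham hearts and 20.8 to 40.8 CPM in the infarct zone, with no overlap and a change of 1.65 ± 0.22 (adjusted p = 7.45e-07). Eif2ak2 rose from 6.08 to 11.8 CPM to 12.1 to 20.1 CPM, also with no overlap (0.85 ± 0.17, adjusted p = 9.03e-05). Oas2 was the weakest call of the members, at 0.47 ± 0.20 (adjusted p = 0.0423), with 6 of 9 infarct zones (8.13 to 19.4 CPM) inside the sham range (6.08 to 14.1 CPM). Its call was lost in the DESeq2 Wald test (adjusted p = 0.0502), without infarct zone replicates 1 and 4 (0.173), and on leaving out any 1 of 10 libraries (0.0579 to 0.0994), namely sham replicates 2, 4, 5, 6, 7 and 8 and infarct zone replicates 1, 3, 4 and 8. Oas3 was too low for the filter, with 7 counts in 8 sham libraries and 144 in 9 infarct zones. The ratio of its levels was 8.94, with a 95% counting interval of 4.23 to 22.6 (exact binomial, counting error only), and 8 of 9 infarct zones lay above all sham libraries. Its last bases match Gm20559 over 110 bases at 96.4% identity and Il31ra over 100 bases at 97.0%, so reads may be shared here too.

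Among the other antiviral effectors 4 of 7 were upregulated. Mx1, a dynamin-like GTPase that traps viral ribonucleoproteins, had 0 to 2.17 CPM in sham (median 0.934, 14 counts in all) and 2.52 to 9.22 CPM in the infarct zone (median 5.79). No infarct zone fell within the sham range (2.55 ± 0.42, adjusted p = 9.71e-06). C57BL/6 mice carry a defective Mx1 allele, and the counts give the transcript and not the protein. Mx2, which the annotation lists as a polymorphic pseudogene, had medians of 2.38 and 4.02 CPM and was not called (0.47 ± 0.30, adjusted p = 0.17). Bst2 (tetherin), which holds budding virus at the cell surface, ran from 22.1 to 36.9 CPM in sham (median 26.7) and from 41.6 to 110.0 CPM in the infarct zone (median 79.4). Its groups did not overlap (1.43 ± 0.18, adjusted p = 1.51e-07). Ifitm3, which blocks the fusion of virus with endosomes, had 104 to 158 CPM in sham (median 133) and 174 to 395 CPM in the infarct zone (median 268), likewise without overlap (1.08 ± 0.16, adjusted p = 2.08e-06). Isg20, an exonuclease for single-stranded RNA, varied widely in sham (0.728 to 11.4 CPM) and had 8.99 to 20.1 CPM in the infarct zone (1.26 ± 0.28, adjusted p = 0.000353).

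Rsad2 (viperin) and Cmpk2, which sit next to each other on chromosome 12 and point apart (chr12:26442746-26456452, minus strand, and chr12:26469204-26479837, plus strand), were not called. Rsad2 had 23.2 to 54.5 CPM in sham (median 30.5) and 15.3 to 62.7 CPM in the infarct zone (median 28.8), with a difference of 0.06 ± 0.22 (adjusted p = 0.82). The highest and the lowest libraries of all 17 were both infarct zones. Cmpk2, a mitochondrial nucleotide kinase, had 8.63 to 14.8 CPM in sham (median 10.9). In the infarct zone it had 5.61 to 10.4 CPM in 8 libraries and 27.8 CPM in replicate 4, and 5 infarct zones lay below every sham library. Its difference was -0.17 ± 0.29 (adjusted p = 0.62) with all libraries and -0.57 without infarct zone replicate 4, where it was called lower (adjusted p = 0.00887), while on total counts alone it was called higher (0.91, adjusted p = 0.00554).

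The interferon-inducible GTPases, which attack the vacuoles of intracellular parasites and are induced most by interferon gamma, did not move together. Irgm1 and Ifi47 were upregulated, Iigp1 was downregulated, and Igtp, Gbp2 and Gbp3 were not called. Iigp1 had 32.8 to 76.6 CPM in sham (median 58.02) and 11.99 to 41.997 CPM in the infarct zone (median 16.3). Of 9 infarct zones 8 lay below every sham library, and replicate 1, the infarct zone with the highest level of cardiomyocyte markers, was the exception at 41.997 CPM. The change was -1.40 ± 0.23 (adjusted p = 1.02e-05), and on total counts alone it kept its direction but was not called (-0.36, adjusted p = 0.101). Within the infarct zone the level of Iigp1 had r of 0.72 with the summed endothelial markers and of -0.72 with the summed monocyte and macrophage markers over 9 libraries that share their depth and scaling. These values rest in part on replicate 1, since without it they were 0.55 and -0.28. A high r with the endothelial sum was not particular to Iigp1, since Gbp3, not called, had 0.73 and Usp18, called higher, had 0.59. Over all members in the infarct zone r ran from -0.55 to 0.73 with the endothelial sum (median 0.11). With the monocyte and macrophage sum it ran from -0.72 to 0.75 (median 0.21). The r of Iigp1 with the leukocyte and fibroblast sums was -0.67 and -0.60, and -0.05 and -0.23 without replicate 1. With the cardiomyocyte sum it was 0.49, and it turned over to -0.45 without replicate 1. In sham, where Iigp1 was more abundant, its r with the endothelial sum was 0.12 and with the monocyte and macrophage sum -0.03. With the leukocyte, fibroblast and cardiomyocyte sums it was -0.27, -0.25 and -0.44 in sham. Irgm1 had 9.23 to 24.9 CPM in sham hearts and 18.3 to 33.8 CPM in the infarct zone (0.83 ± 0.17, adjusted p = 0.000185), with 7 of 9 infarct zones above sham. Ifi47 rose from a median of 3.39 to 8.27 CPM (1.37 ± 0.31, adjusted p = 0.000364), and it shares an exon and 111 identical last bases with Olfr56. The medians of Igtp were 11.8 CPM in sham hearts and 11.8 CPM in the infarct zone, those of Gbp2 16.1 and 14.7, and those of Gbp3 17.8 and 20.5. Their log2 differences were 0.04 ± 0.21, 0.08 ± 0.16 and 0.03 ± 0.17, none of them called (adjusted p 0.882, 0.652 and 0.877), whereas on total counts alone all 3 were called higher (1.11, 1.16 and 1.09). The exons of Igtp overlap those of Irgm2 on the same strand.

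Of the 6 remaining members 2 were upregulated. Ifi27, a small mitochondrial membrane protein, had 35.9 to 55.8 CPM in sham (median 47.8) and 70.4 to 111 CPM in the infarct zone (median 96.1). The groups did not overlap, and its change of 0.95 ± 0.12 (adjusted p = 2.35e-07) had the second smallest standard error of the members tested. Rtp4, a chaperone of membrane receptors that also binds viral RNA, had 9.39 to 28.2 CPM in sham hearts and 12.95 to 37.1 CPM in the infarct zone. Of its infarct zones 7 lay within the sham range (0.63 ± 0.22, adjusted p = 0.0138), and the call was lost without infarct zone replicates 1 and 4 (adjusted p = 0.0718). The exons of Rtp4 overlap those of Gm45338 on the same strand. The others had log2 differences of 0.29 ± 0.23 (Xaf1, a binder of the apoptosis inhibitor XIAP), 0.18 ± 0.15 (Ifi35), 0.48 ± 0.28 (Ifi44) and 0.27 ± 0.14 (Parp14, a mono-ADP-ribosyltransferase), with adjusted p of 0.266, 0.267, 0.131 and 0.0871. On total counts alone all 4 were called higher. Calls also appeared for Irf1 and Parp14 without sham replicate 2 (0.43 and 0.32), for Mx2 without sham replicate 8 (0.74), for Ifi44 without infarct zone replicate 2 (0.62) and for Parp14 with upper quartile scaling (0.38).

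The rest of the pathway was read from lists of its parts. Among all genes tested 36.3% were higher and 33.1% lower, and the counts of these short lists stand against that. Ligands were almost absent. Of 21 interferon genes 6 had a row in the table, none could be tested, and all 6 were at 0 in the 8 sham libraries, which allows a level of up to 0.212 CPM (3 counts over the group). In 9 infarct zones Ifnb1 (interferon beta) had 9 counts, in 3 libraries, Ifnz had 7, also in 3, Ifng had 2, and Ifna16 and Ifnk had 1 each, while Ifnab was at 0. Of 5 receptor subunits tested 3 were higher and 2 lower (4 and 0 on total counts alone), from Ifnar1 (6.51 to 16.5 CPM in sham hearts and 28.0 to 47.8 CPM in the infarct zone, 1.63 ± 0.18, adjusted p = 4.22e-08) to Ifngr2 (118 to 206 and 64.0 to 148 CPM, -0.94 ± 0.15, adjusted p = 9.77e-06). Among 7 kinases and IRFs tested, 4 were higher and none was lower (7 and 0 on total counts alone), with Irf5 (median 2.54 CPM in sham hearts and 39.4 CPM in the infarct zone) at 3.69 ± 0.31 and Jak1 at -0.05 ± 0.13.

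The lists of sensing adaptors and brakes held genes called in both directions, as did all genes tested (36.3% higher and 33.1% lower). Of 13 sensing and adaptor genes tested 10 were higher and 1 lower (12 and 0 on total counts alone), with a median of 1.29. Ikbke, a kinase that activates IRF3 and IRF7, had at most 3 counts in a sham library (0 to 1.65 CPM) and 12.2 to 20.5 CPM in the infarct zone (adjusted p = 3.53e-11). Mavs, the mitochondrial adaptor of RIG-I and MDA5, fell from 23.5 to 43.6 CPM in sham to 8.18 to 22.4 CPM in the infarct zone with no overlap (-1.23 ± 0.16, adjusted p = 4.1e-07), while the sensors upstream of it, Ddx58 and Ifih1, were called higher. Of 12 genes that restrain signalling 6 were higher and 3 lower (10 and 0 on total counts alone), from the phosphatase gene Ptpn6 (3.28 ± 0.22, adjusted p = 1.08e-11) to the mitochondrial Nlrx1 (-1.01 ± 0.18, adjusted p = 2.16e-05). Of 50 further interferon-induced genes tested 30 were higher and 6 lower (43 and 1 on total counts alone), with a median of 0.70 against 0.68 for the members. Both lists were chosen with earlier results of these data known, so the medians are no independent support for each other. Cxcl10, the chemokine for CXCR3, was the highest, with 0 to 3.36 CPM in sham hearts and 2.34 to 23.7 CPM in the infarct zone (3.81 ± 0.65, adjusted p = 1.73e-05), and Gbp6 was the lowest, with 10.9 to 18.04 and 2.68 to 11.1 CPM (-1.56 ± 0.24, adjusted p = 3.47e-06). The other 5 that were lower, named after their values were seen, were Gbp4 (-1.35), Gbp5 (-0.96), Tgtp1 (-0.79), Tgtp2 (-0.68) and Ly6a (-0.63). Gbp4, Gbp5 and Gbp6 encode guanylate-binding proteins, and Tgtp1 and Tgtp2 encode immunity-related GTPases, as do Irgm1 and Ifi47, which were called higher.

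Single libraries differed in their levels of the members. Infarct zone replicate 4 had the highest level for 21 of the 39 members and the lowest for none, and its summed member level of 1533 CPM was the highest of all libraries. Its leukocyte sum of 1295 CPM and its monocyte and macrophage sum of 4994 CPM lay within the range of the other infarct zones (611 to 1559 and 2531 to 6024 CPM). These ranges are wide, and the part of cell content in the level of replicate 4 was not tested. In sham, replicate 2 was the highest for 13 of the 30 members with a mean of at least 10 counts, and replicate 4 was the lowest for 12. These counts and those of infarct zone replicate 4 were not made for all genes, so they do not set the members apart. The median coefficient of variation of the members was 28.7% in the infarct zone and 27.4% in sham, of which counting error alone would give 13.6% and 20.6%. Without infarct zone replicate 4 the median log2 fold change was 0.53.

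**Figure D3:**
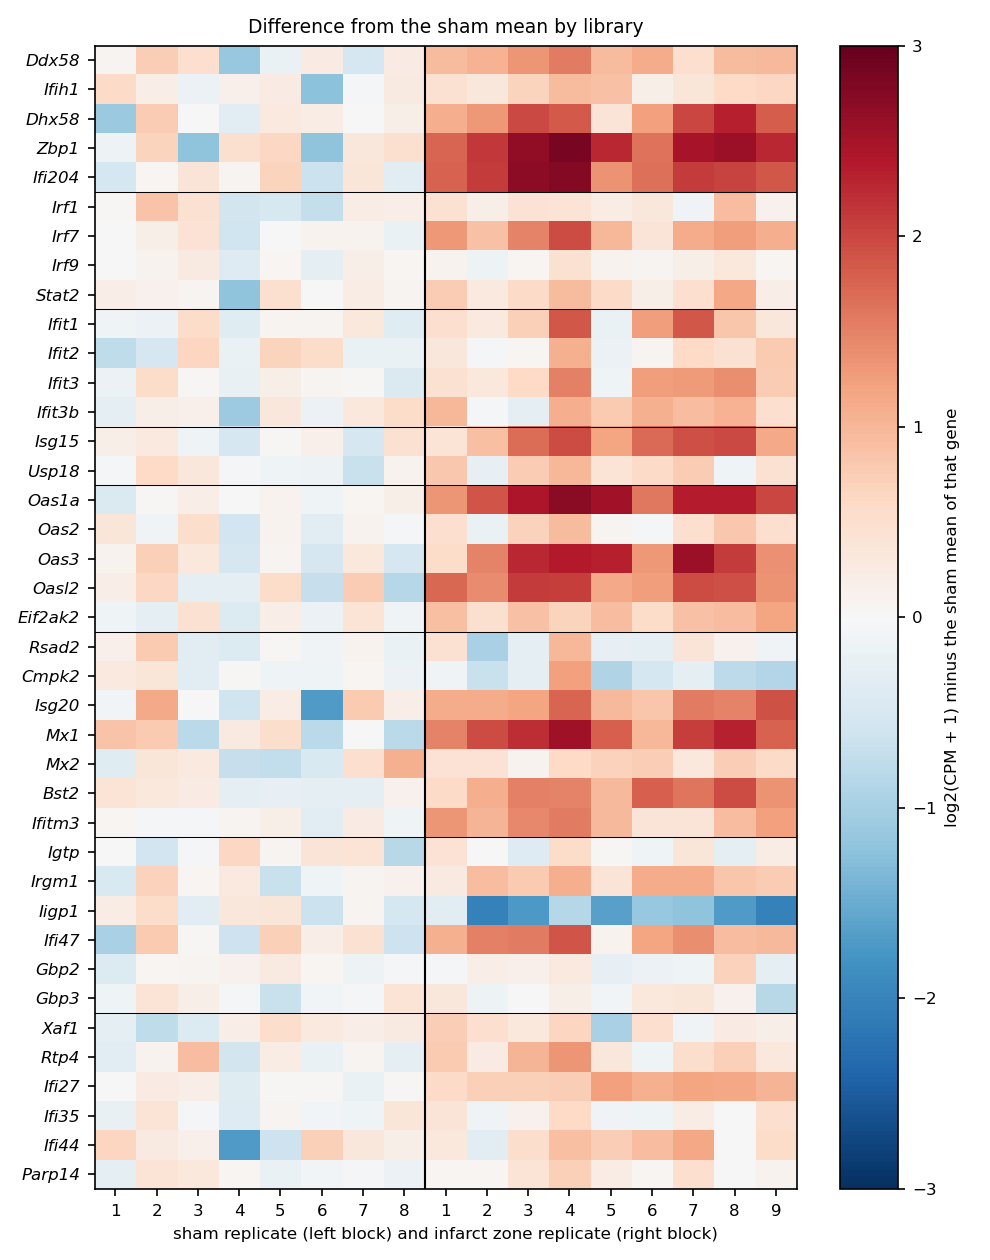
Each column is a library and each row a member; colour gives log2(CPM + 1) minus the sham mean of that gene, on a scale cut at -3 and 3. Sensors, Oas1a, Oas3, Oasl2, Mx1 and Bst2 are red across the 9 infarct zones, Oas2 is not, Iigp1 is blue, and infarct zone replicate 4 is red for most rows and is the highest infarct zone for 21 members. This count was not made for all genes.

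Covariation was then read within each group, so that the difference between the groups played no part. Over the 8 sham libraries, 30 members had a mean of at least 10 counts, and the median Pearson r of log2 CPM over their 435 pairs was 0.16, with 64.4% of pairs positive and 36 pairs (8.28%) at 0.7 or above. Over the 9 infarct zones all 39 members entered, and the median over 741 pairs was 0.29, with 79.2% positive and 63 pairs (8.50%) at 0.7 or above. For all genes with a mean of at least 10 counts, not matched to the members in level, the median was -0.00 in both groups, and 3.80% and 4.28% of pairs reached 0.7. The jackknife standard error over libraries was 0.09 in sham hearts and 0.15 in the infarct zone, and without infarct zone replicate 4 the infarct zone median was 0.16, so the members were not shown to covary more in one group than in the other. Pairs within a role were barely closer than others in the infarct zone (median 0.30 over 84 pairs against 0.29 over 657) and somewhat closer in sham (0.30 over 49 against 0.15 over 386). The transcription factors had the highest median of the roles with more than 1 pair in both groups, 0.73 in sham hearts and 0.65 in the infarct zone over 6 pairs each. All these correlations come from 8 or 9 libraries that share their scaling and are descriptions.

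**Figure D4:**
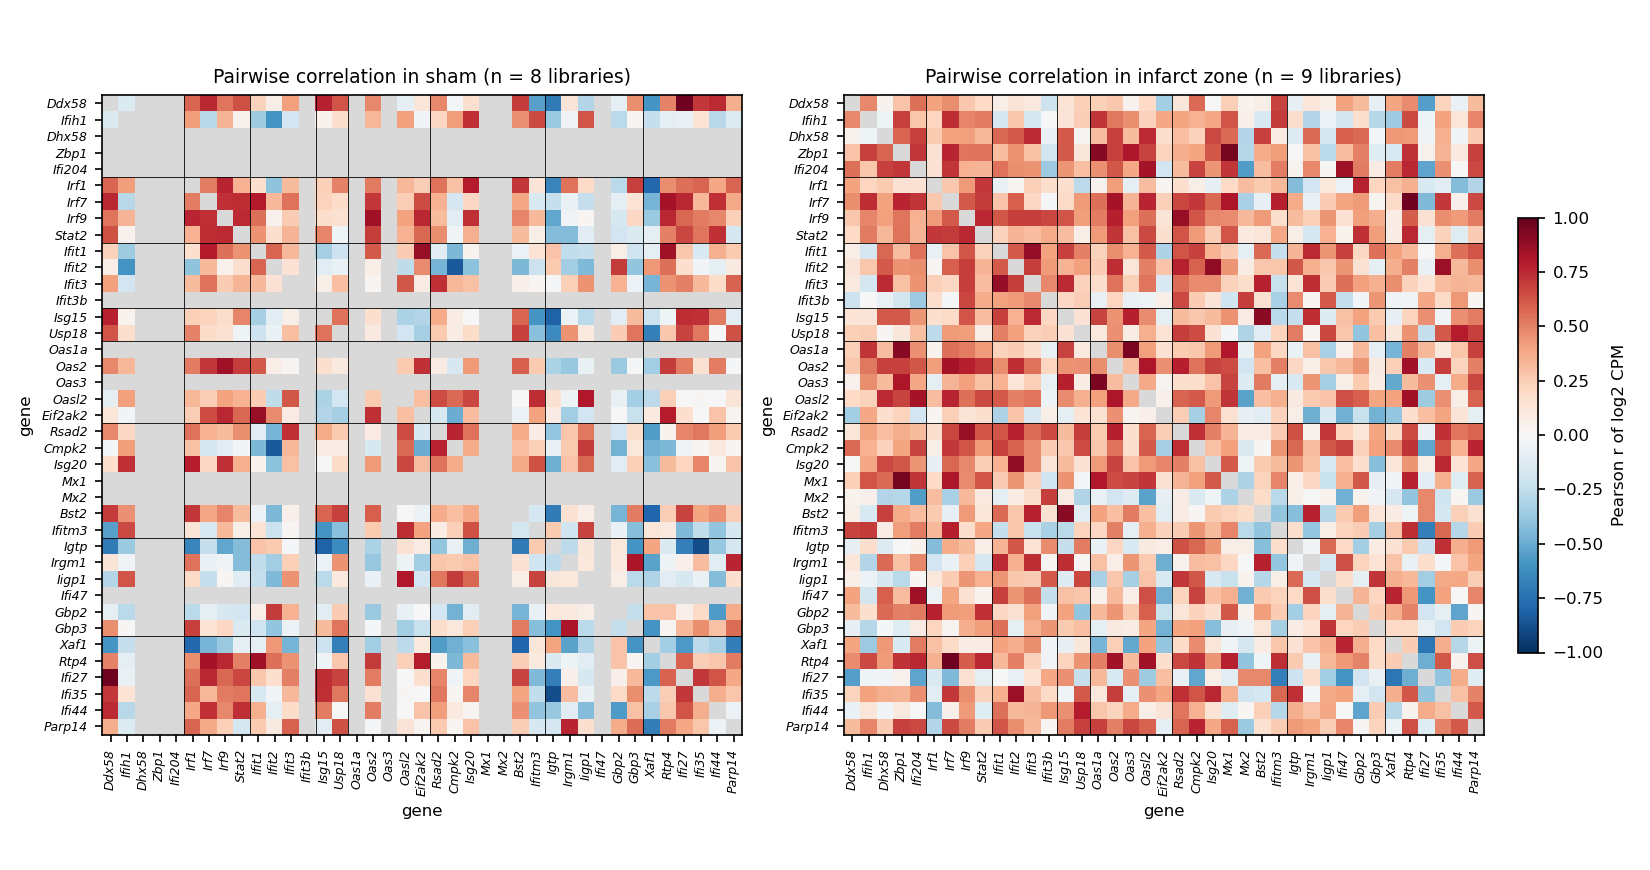
Pearson r of log2 CPM for each pair of members, over the 8 sham libraries (left) and the 9 infarct zones (right); genes follow the order of the roles, black lines divide the roles, and grey cells mark the diagonal and members with a mean under 10 counts. Most cells are pale red (79.2% of pairs positive in the infarct zone and 64.4% in sham), with blue rows for Igtp and Xaf1 in sham hearts and for Ifi27 in the infarct zone.

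The closest pairs in the infarct zone were Irf7 and Rtp4 (r = 0.98), Zbp1 and Mx1 (0.96) and Oas1a and Oas3 (0.94). Leaving out any 1 infarct zone kept these at or above 0.96, 0.94 and 0.90. In sham they were Ddx58 and Ifi27 (0.97), Ifit1 and Eif2ak2 (0.87) and Irf9 and Oas2 (0.85). The first of these turned over between the groups, since Ddx58 and Ifi27 had r of -0.55 in the infarct zone. The lowest pairs of the infarct zone all held Ifi27, with Xaf1 (-0.73), Ifitm3 (-0.69) and Ifi47 (-0.60). Ifi27 itself had r of -0.89 with the log2 total count of the infarct zone libraries, while Ddx58, Xaf1, Ifitm3 and Ifi47 had 0.65, 0.64, 0.62 and 0.66. In sham Ddx58 and Ifi27 both had -0.63 with the total count, and the part of depth in these values was not tested. The lowest pairs in sham were Igtp and Ifi35 (-0.89), Ifit2 and Cmpk2 (-0.84) and Isg15 and Igtp (-0.81).

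Of the 435 pairs of the same 30 genes measured in both groups, 36 were at 0.7 or above in sham hearts and 42 in the infarct zone. The groups shared 5 of these, which is 13.9% of the former and 11.9% of the latter. Whether this exceeds the overlap of unrelated pairs was not tested. The shared pairs were Irf7 with Oas2, Irf7 with Rtp4, Irf9 with Oas2, Irf9 with Stat2, and Rsad2 with Cmpk2. Without sham replicate 4 the sham values of Irf9 with Stat2 (0.74) and of Irf7 with Oas2 (0.71) were 0.30 and 0.39. Rsad2 and Cmpk2, the divergent neighbours, had r of 0.76 in sham hearts and 0.73 in the infarct zone, and 0.45 without infarct zone replicate 4. Among the neighbours on chromosome 19, Ifit1 and Ifit3 had r of 0.88 in the infarct zone (0.82 to 0.94 on leaving out 1 library) and 0.33 in sham (0.06 without replicate 8 and 0.74 without replicate 2). Ifit3 and Ifit3b, with the same printed upstream bases, had 0.48 in the infarct zone. Isg15 and its protease gene Usp18 had 0.15 in the infarct zone (-0.13 without replicate 2 and 0.48 without replicate 1) and 0.55 in sham (0.22 without replicate 7), so single libraries set these values. Mx1 and Mx2, also close on chromosome 16, had -0.31 in the infarct zone and -0.02 without replicate 6.

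The relations of Irf7 and Irf1 with each other member were tested by exact permutation of the libraries, 132 relations over both factors and both groups, with Benjamini-Hochberg adjustment. A single relation passed, that of Irf7 with Rtp4 in the infarct zone (r = 0.98, exact permutation p = 8.27e-06, adjusted p = 0.00109, Spearman rho = 0.98, adjusted p of rho = 0.00655). Without the 2 libraries farthest from the median of Irf7 r was 0.96. In the sham libraries the same pair had r of 0.83 (exact permutation p = 0.0184, adjusted p = 0.244), and r of 0.50 without the 2 farthest libraries. Unadjusted p was under 0.05 for 11 of 38 relations of Irf7 in the infarct zone and 5 of 29 in sham, and for 2 of 37 of Irf1 in the infarct zone and 3 of 28 in sham. Without infarct zone replicate 1, 2 relations of Irf7 passed. Irf7 had a positive r with 33 of 38 members in the infarct zone, and Irf1 with 26 of 37, where 79.2% of all member pairs were positive. Neither these counts nor those of unadjusted p were made for all genes, so they do not set either factor apart. A difference between Irf7 and Irf1, or between the groups, was not tested.

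**Figure D5:**
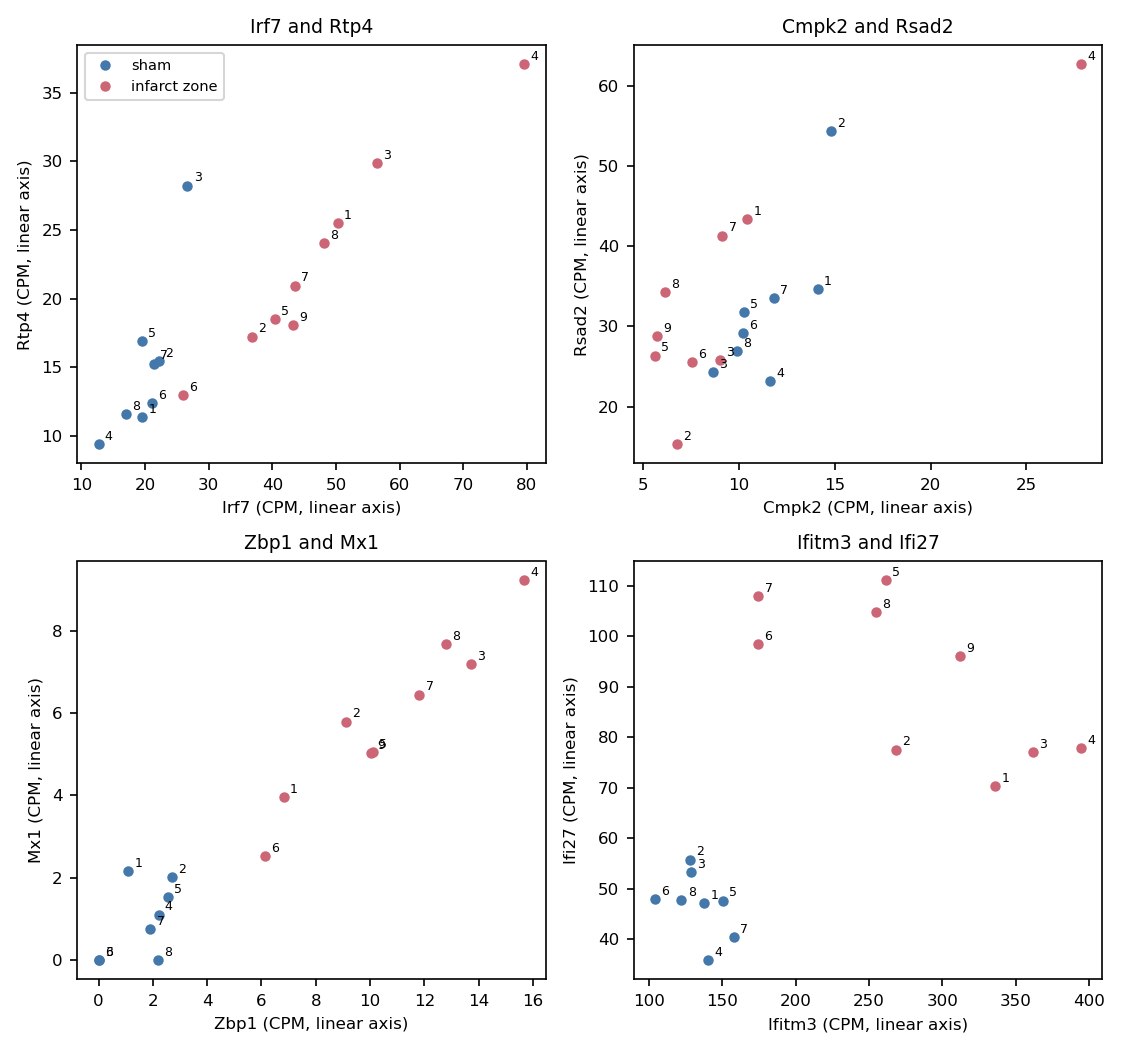
Levels of 4 pairs of members in CPM on linear axes, with each point a library labelled by its replicate number (blue, 8 sham; red, 9 infarct zones). Irf7 and Rtp4 lie on a line in the infarct zone (r = 0.98) with sham replicate 3 above it, infarct zone replicate 4 is far from the rest for Cmpk2 and Rsad2, and Ifitm3 and Ifi27 run against each other in the infarct zone (r = -0.69) while both are higher there than in sham.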

How the data were processed

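Transcript levels were measured by Massive Analysis of cDNA Ends in 8 sham left ventricles and 9 infarct zones, 1 library per mouse, grouped and numbered as in the labels. The authors trimmed the reads with Cutadapt, mapped them to mm10 and quantified transcripts with HTSeq after removal of PCR duplicates by molecular identifiers. Bowtie2, bcl2fastq and DESeq2 are named in the submitters' processing notes. The release of the annotation and the treatment of reads with several locations are not given in the sources used here. The deposited values are raw counts per gene, with no normalization.

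Differences between the groups were tested in edgeR 4.0.16, run in R 4.3.3 (TMM, filterByExpr with its minimum of 10 counts, two-sided quasi-likelihood F test with no covariates, Benjamini-Hochberg over all genes tested, threshold 0.05). Standard errors of log2 fold changes came from the F statistic. Log2 CPM used a prior count of 1. Correlations were computed within a group over members with a mean of at least 10 counts, and p-values by exact two-sided permutation. All 39 members are named, and of each pathway list the highest and lowest log2 fold change and each ligand with a count. Members and lists were chosen with earlier results of these data known, so they are not independent of them. A single gene was left out of the pathway lists and is not reported here. Positions come from the GENCODE annotation of GRCm38, and promoters from RefSeq. The last 500 bases of each member transcript were searched against all transcripts by BLAST 2.17.0 for matches of at least 100 bases at 95% identity. Python 3.11.15, SciPy 1.17.1 and Matplotlib 3.10.9 were used. The fit and the correlations were tested on simulated data. No replicate numbers paired the libraries, since deviations of same-numbered libraries correlated at -0.22 to 0.13. Alternatives were other scalings, the Wald test of DESeq2 1.42.0, other filters, thinning, a replicate block and the omission of each library. Totals of 1237675 to 4738307 counts limit precision for members at a few CPM, where 1 CPM is a handful of counts.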

Additional observations from a re-analysis of the deposited data

Results flagged for a closer look

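Among 69 combinations of a member and a group with a mean of at least 10 counts, 6 had a library that stood apart from the others of its group by Dixon's criterion on log2 CPM, 3 in sham and 3 in the infarct zone. That is 8.70%, and chance flags about 1 in 20 (5%). In sham, Ifih1 was lowest in replicate 6 at 3.64 CPM (next 8.63 CPM), Stat2 was lowest in replicate 4 at 5.52 CPM (next 13.8 CPM), and Rsad2 was highest in replicate 2 at 54.5 CPM (next 34.7 CPM). In the infarct zone, Cmpk2 was highest in replicate 4 at 27.8 CPM (next 10.4 CPM), Gbp3 was lowest in replicate 9 at 10.04 CPM (next 16.5 CPM), and Xaf1 was lowest in replicate 5 at 3.37 CPM (next 6.98 CPM). The value of Cmpk2 in replicate 4 decided its call, which was lower without that library. Cmpk2 and Rsad2, which are neighbours, had their highest infarct zone value in the same library, and in sham both were highest in replicate 2. The cause was not tested.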

How the results depend on the processing

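Fold changes and calls depended most on the scaling. On total counts alone 37 members were higher and 0 lower, with a median log2 fold change of 1.75, Cmpk2 turned over to 0.91 and Iigp1 was no longer called, while the median of all genes tested moved by 1.08 and 85.7% of all calls were higher, against 52.3% with TMM. A minimum mean of 50 counts left 20 members tested and 13 higher. Without infarct zone replicates 1 and 4 together 2 members were lower (Iigp1 and Cmpk2) and the median was 0.44. With the replicate block 22 members were higher and the median was 0.72, Oas2 and Usp18 being lost, but the numbers do not pair the libraries. Omitting single libraries gave 21 to 25 members higher, 1 to 2 lower, medians of 0.53 to 0.78, a median pairwise r of 0.11 to 0.21 (sham) and 0.16 to 0.34 (infarct zone), and 1 to 2 members correlated with Irf7 in the infarct zone. The other scalings, DESeq2 (23 higher), no filter (25 higher, Oas3 among them at a log2 fold change of 3.11) and thinning (21 higher) kept these counts within 1.5 times. The cause of these shifts was not tested, apart from fewer genes or libraries entering a fit.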
